A study of Rattus norvegicus with 78 samples.

Results

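The rat major histocompatibility complex (RT1) and the genes that supply it with peptides were followed through 2 brain regions and 4 ages. The set held the array rows whose RefSeq accession maps to a rat symbol starting with RT1-, plus B2m, Tap1, Tap2, Tapbp, Psmb8, Psmb9, Psmb10 and Cd74. With 1 row per symbol this gave 46 genes, of 9627 named genes and 26419 features in all. They were 3 RT1-A class I genes, 12 class I genes of the CE region, 14 other class I genes of the M, N, O, S and T loci, the class I light chain B2m, 3 peptide transport and loading genes, 3 immunoproteasome subunits and 10 class II genes including Cd74. The gene table lists 67 RT1 symbols, of which 38 had a row.

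The animals were male offspring of a rat line selectively bred for low locomotor response to novelty (Low Responder). For the exposed group, paroxetine was put in the dams' water at 10 mg per kg per day, starting in the week before conception and ending when the litters were weaned at P21. Paroxetine is an antidepressant that blocks the uptake of serotonin. Dams of the control group drank normal water. Hippocampus and amygdala were taken from exposed and control rats at postnatal days 7, 14, 21 and 75 (P7, P14, P21, P75), so that the P75 animals had been off the drug since weaning. The 16 groups had 5 single-colour NimbleGen arrays each, but both exposed P7 groups had 4. All rats of both groups belong to the same selected line and sex. Litters are not labelled, nor whether 1 rat gave both regions, so the p-values reflect array-to-array spread alone, which may be technical, and so few arrays per group limit precision. Values are log2 of the deposited intensities, and a difference is the exposed mean less the control mean, ± its limma standard error. A gene is said to rise, fall or be called only where its limma p, adjusted by Benjamini-Hochberg over all features, was under 0.05.

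Class I molecules are heavy chains that pair with the light chain beta-2-microglobulin (B2m) and show peptides on the cell surface. The peptides come from the proteasome, whose catalytic subunits can be replaced by the immunoproteasome subunits encoded by Psmb8, Psmb9 and Psmb10. They are pumped into the endoplasmic reticulum by Tap1 and Tap2 and loaded with the help of tapasin (Tapbp). Class II molecules are pairs of alpha and beta chains that are held by the invariant chain Cd74 and loaded with the help of the DM proteins, which DO proteins restrain, and in brain they are mainly known from microglia and other antigen-presenting cells. Class I transcripts are also known from neurons of rodents, where class I molecules have been studied in the pruning and strength of synapses during development.

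Some RT1 genes are close copies of each other, and 43 of the 46 genes lie on chromosome 20 in the RefSeq gene table of assembly GRCr8. The gene spans of 6 pairs overlap there, namely RT1-CE10 with RT1-CE11, RT1-CE12 with RT1-CE13, RT1-CE4 with RT1-CE5, RT1-CE4 with RT1-CE7, RT1-CE5 with RT1-CE7, and RT1-O1 with RT1-S2. The probe sequences were not analysed here, and double-stranded cDNA was labelled, so one row may report transcripts of a similar or overlapping copy, of either strand, or of an allele with another match to the probe. Every RT1 value below carries that limit, and cross-hybridization was not tested. RefSeq promoter windows, from 250 bases before to 50 bases after the start, were found for 42 of the 46 genes. Among the 26 class I windows the closest pair was RT1-M6-1 and RT1-M6-2 (96% identical), followed by RT1-CE13 and RT1-CE16 (88.2%), and RT1-A2 and RT1-A3 were 84.7% identical. The 250 bases before the start are shown for class I genes that moved together or apart below and for B2m, 5′ to 3′, with RT1-A3 at chr20:4849201-4849450 on the plus strand, RT1-CE10 at chr20:3384980-3385229 on the minus strand, RT1-CE11 at chr20:3363199-3363448 on the minus strand, RT1-CE15 at chr20:3283771-3284020 on the minus strand, RT1-O1 at chr20:2659687-2659936 on the plus strand and B2m at chr3:129549080-129549329 on the plus strand of GRCr8. The start used for a window can differ from the edge of the gene span used above. The RT1-CE11 window lies inside that gene's span of 3355422 to 3385063. Capitals mark the 10 letters searched for the NF-kappaB site of class I promoters and, in B2m, those of the core of an interferon-stimulated response element (GAAA, any 2 bases, GAAA).
RT1-A3: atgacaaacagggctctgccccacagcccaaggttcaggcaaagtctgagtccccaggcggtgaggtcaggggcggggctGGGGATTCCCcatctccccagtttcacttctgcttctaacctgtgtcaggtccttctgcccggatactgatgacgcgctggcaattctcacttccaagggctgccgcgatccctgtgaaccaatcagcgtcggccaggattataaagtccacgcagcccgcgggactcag
RT1-CE10: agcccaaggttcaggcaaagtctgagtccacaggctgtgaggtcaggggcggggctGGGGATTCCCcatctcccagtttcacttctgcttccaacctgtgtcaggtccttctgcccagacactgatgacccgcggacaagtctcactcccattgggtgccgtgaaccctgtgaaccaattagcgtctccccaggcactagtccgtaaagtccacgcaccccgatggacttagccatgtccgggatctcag
RT1-CE11: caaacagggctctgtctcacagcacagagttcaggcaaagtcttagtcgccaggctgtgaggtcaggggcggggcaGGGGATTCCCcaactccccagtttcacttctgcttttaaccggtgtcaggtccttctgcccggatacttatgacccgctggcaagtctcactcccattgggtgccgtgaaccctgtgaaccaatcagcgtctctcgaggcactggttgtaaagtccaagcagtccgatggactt
RT1-CE15: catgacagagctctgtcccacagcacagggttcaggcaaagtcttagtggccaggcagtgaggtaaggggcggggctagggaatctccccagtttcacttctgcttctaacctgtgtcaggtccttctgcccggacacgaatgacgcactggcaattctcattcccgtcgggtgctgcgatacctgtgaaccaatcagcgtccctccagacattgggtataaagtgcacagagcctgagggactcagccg
RT1-O1: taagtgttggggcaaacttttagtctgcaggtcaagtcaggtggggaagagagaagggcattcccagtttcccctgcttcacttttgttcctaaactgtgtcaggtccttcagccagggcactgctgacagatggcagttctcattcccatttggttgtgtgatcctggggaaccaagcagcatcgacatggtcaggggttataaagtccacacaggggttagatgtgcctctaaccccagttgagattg
B2m: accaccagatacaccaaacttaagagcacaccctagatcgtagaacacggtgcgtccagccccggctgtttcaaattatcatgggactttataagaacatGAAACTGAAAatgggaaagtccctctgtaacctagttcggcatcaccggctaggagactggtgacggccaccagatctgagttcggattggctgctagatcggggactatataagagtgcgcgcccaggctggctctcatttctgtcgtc

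The NF-kappaB letters, as capitalised in RT1-A3, were in the windows of RT1-A1, RT1-A2, RT1-A3, RT1-CE4, RT1-CE10, RT1-CE11, RT1-CE13 and RT1-CE16, which are 8 of 26 class I genes, against 0.114% of all 33469 rat promoter windows. The interferon core was in 9 of the 42 windows (B2m, Tap1, Tap2, Tapbp, Psmb8, Psmb10, RT1-N3, RT1-S2 and RT1-S3), against 3.92% of all. The inverted CCAAT box ATTGG was in all 9 class II windows and in 28 of the 42, against 37.5% of all. The core of the cyclic AMP response element, TGACG, was in 11 of the 42, against 21.2% of all. Each of the 4 motifs was searched on both strands and counted separately, so matches of different motifs may overlap. A match says only that the letters are present. Only these letters were searched, so a window without a match may still hold a variant of the element.

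Array-wide measures moved with exposure. A random-sequence control probe averaged 52.97 ± 1.61 intensity units in exposed and 43.97 ± 0.38 in control hippocampus at P7 (SD, n = 4 and 5), but 49.0 ± 0.28 in exposed and 56.29 ± 0.67 in control hippocampus at P75 (SD, n = 5 each). Of the 8 comparisons it differed in 7 (exact permutation tests, adjusted p = 0.0127 or 0.0181), with the exception of the amygdala at P14, and it was higher in exposed rats at hippocampal P7 and P14 and amygdalar P21. The interquartile range of all log2 values also differed in 7 of the 8 (exact permutation tests, adjusted p between 0.0159 and 0.0363), with the exception of the amygdala at P75. It averaged 2.793 in exposed and 3.205 in control hippocampus at P7, and 2.971 in exposed and 2.725 in control hippocampus at P75. With all arrays given 1 common distribution by quantile normalization, 69 of the 87 called exposure differences of the 46 genes were called in the same direction. Arrays of a group correlated at 0.926 to 0.985. Some arrays stood apart from their group on the first 2 principal components of all features of a region. At hippocampal P7 the exposed arrays 3 and 4 lay at 58.1 and 57.3 on the second component and arrays 1 and 2 at 11.2 and 11.6. At hippocampal P14 the control arrays 4 and 5 lay at 82.2 and 92.6 on the first component and the other 3 between 47.5 and 51.4. At amygdalar P75 the exposed arrays 1 and 2 lay at 67.1 and 65.5 on the first component, against -0.30 to 38.4 for the other 3. Their part in the results was not tested, except by leaving them out.

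Of the 46 genes 34 (73.9%) were called in at least 1 of the 8 comparisons of exposed with control rats, against 83.3% of all features. In the hippocampus 14 rose and 1 fell at P7, where 53.4% of all features were called, 25.1% higher and 28.3% lower in exposed rats. There 9 rose and 3 fell at P14 (38.2% of all features called, 16% higher and 22.2% lower), 9 rose and 4 fell at P21 (26.4%, 15.8% higher and 10.6% lower), and 6 rose and 11 fell at P75 (42.4%, 23.7% higher and 18.6% lower). In the amygdala 1 rose and 3 fell at P7, where 7.83% of all features were called, 5.66% higher and 2.17% lower. There 7 rose and 4 fell at P14 (35.8%, 16.5% higher and 19.3% lower), 4 rose and 3 fell at P21 (25.4%, 9.45% higher and 16% lower), and 3 rose and 5 fell at P75 (21.1%, 9.35% higher and 11.8% lower). The share of the genes called was below the share of all features at hippocampal P7, P14 and P75 and at amygdalar P14, P21 and P75. Without the arrays that stood apart, 14 genes were called at hippocampal P7 without exposed arrays 1 and 2 and 17 without 3 and 4, 8 at P14 without control arrays 4 and 5 and 9 without 1 to 3, and at amygdalar P75 4 without exposed arrays 1 and 2 and 8 without 3 to 5. With the random probe's value as a covariate the number called fell to 1 at hippocampal P7, 6 at P14, 0 at P21 and 1 at P75, where 6.48%, 17.5%, 0.00757% and 0.432% of all features were called. The same covariate left 2, 11, 5 and 6 called in the amygdala at P7, P14, P21 and P75, where 1.02%, 38%, 19% and 16.9% of all features were. The random probe and exposure moved together in the hippocampus at P7, P14, P21 and P75 and in the amygdala at P7, P21 and P75. Their parts cannot be told apart in these comparisons.

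**Figure D1:**
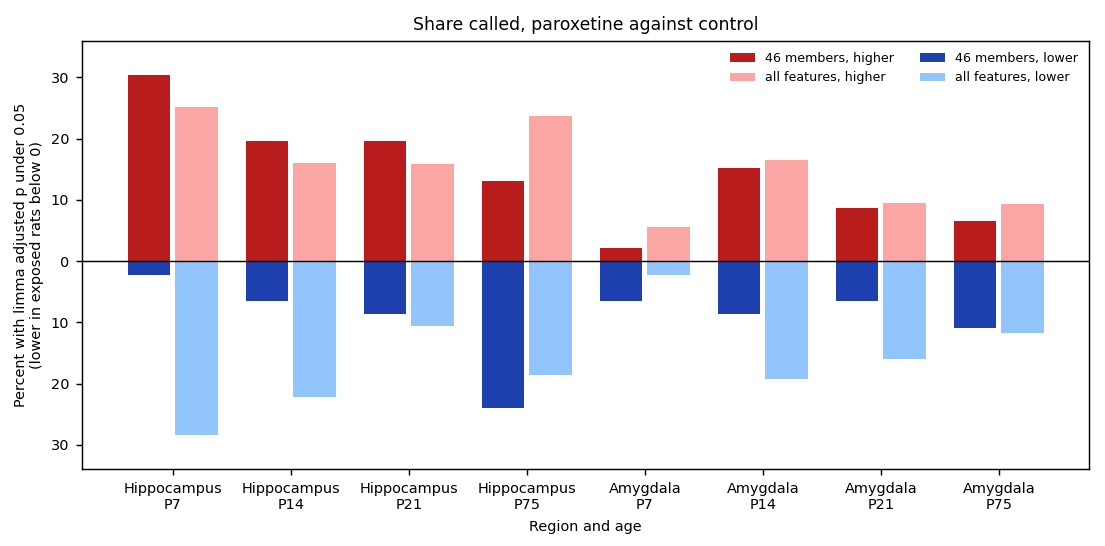
Percent of the 46 genes (dark) and of all 26419 features (light) with a limma adjusted p under 0.05 in each region and age, with features higher in exposed rats above 0 and lower ones below it. At hippocampal P7 only 1 of the 46 genes was lower in exposed rats, against 28.3% of all features.

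Marker genes of other cell types were called as well, and several lists moved with age and exposure in the hippocampus. Of 9 measured choroid plexus and ependyma markers 7 rose and 0 fell at P7, where 53.4% of all features were called and 25.1% rose. Their summed intensity was 8318 to 9794 in exposed and 2843 to 3089 in control rats. It was 6884 to 7598 in exposed and 4459 to 5443 in control rats at P14 and 2859 to 3251 in exposed and 4092 to 4995 in control rats at P21, without overlap at any of these 3 ages, and 3552 to 4125 in exposed and 3270 to 4342 in control rats at P75, with overlap. Transthyretin (Ttr), the main secreted protein of the choroid plexus, differed by 2.35, 0.77, -1.98 and 1.51 at the 4 hippocampal ages and by 1.47, -1.86, 4.08 and -0.53 in the amygdala, and all but the last of these were called. The list did not always move as Ttr did. Of its 9 markers 3 rose and 0 fell at hippocampal P14 (38.2% of all features called), 1 and 3 at P21 (26.4%), and 2 and 3 at P75 (42.4%). In the amygdala 1 rose and 0 fell at P7 (7.83%), 2 and 4 at P14 (35.8%), 3 and 0 at P21 (25.4%), and 0 and 0 at P75 (21.1%). The amygdalar sums of this list were 2483 to 5608 in exposed and 4727 to 7289 in control rats at P14, with overlap, and 6379 to 7681 in exposed and 1935 to 2530 in control rats at P21, without.

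Of 8 astrocyte markers 7 fell at hippocampal P7, where 28.3% of all features fell, with sums of 19250 to 20495 in exposed and 54907 to 63112 in control rats. At P75 5 rose, where 23.7% of all features rose, with sums of 63302 to 75263 in exposed and 46739 to 49497 in control rats. Neuronal markers fell in 10 and rose in 2 of 12 at hippocampal P7, where 28.3% of all features fell and 25.1% rose. They rose in 12 of 12 at P75, where 42.4% of all features were called and 23.7% rose. Of 6 markers of amygdalar identity 5 rose in the hippocampus at P75, with sums of 10452 to 12081 in exposed and 4724 to 5684 in control rats. Sums of 2 hippocampal identity markers, of which 1 rose, were also apart there, at 3692 to 3916 in exposed and 2172 to 2528 in control rats. In the amygdala at P75 5 of the 6 amygdalar markers fell, where 11.8% of all features fell. Their sums were 21922 to 30559 in exposed and 40823 to 47953 in control rats. Microglia markers were called in 7 of 12 at hippocampal P7 (3 rose and 4 fell), near the 53.4% of all features called. At P75 5 of 12 were called (3 rose and 2 fell), near the 42.4% of all features. Their sums of 2525 to 2946 in exposed and 2864 to 3422 in control rats at P7 and 4045 to 4417 in exposed and 3799 to 4090 in control rats at P75 overlapped. Of 10 measured lymphocyte and dendritic cell markers 3 rose at hippocampal P7, near the 25.1% of all features that rose. Their sums were 1269 to 1877 in exposed and 1041 to 1230 in control rats, without overlap. At P75 3 fell, where 18.6% of all features fell, with sums of 1056 to 1500 in exposed and 1467 to 1831 in control rats that overlapped. Cd3d, a T cell receptor subunit, rose by 1.10 ± 0.18 at hippocampal P7 and fell by 1.03 ± 0.17 at P75. The part of these cells in the RT1 differences was not tested, and in whole tissue fewer cells of a type and less RNA per cell cannot be told apart.

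For 8 class I genes the exposure difference turned round with age. RT1-A3, RT1-CE3, RT1-CE10, RT1-CE11, RT1-M3-1, RT1-M5, RT1-O1 and RT1-S2 rose in exposed hippocampus at P7 and fell there at P75. These 8 are 17.4% of the 46 genes, and 11.5% of all features had the same pair of calls. The opposite pair of calls, a fall at P7 and a rise at P75, was found for 0 of the 46 genes and for 16.6% of all features. All but RT1-M3-1 and RT1-M5 also rose in exposed amygdala at P14, which makes 6 of the 46 genes (13%), against 6.48% of all features. The random probe was itself higher in exposed hippocampus at P7 and P14 and lower at P21 and P75. With it as a covariate 1 of the 46 genes rose at hippocampal P7 and 0 fell at P75, so none of the 8 kept both calls. An F test of equal exposure differences over the 4 ages called 22 of the 46 genes in the hippocampus, where 63.5% of all features were called, and 10 in the amygdala, where 32.7% were.

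**Figure D2:**
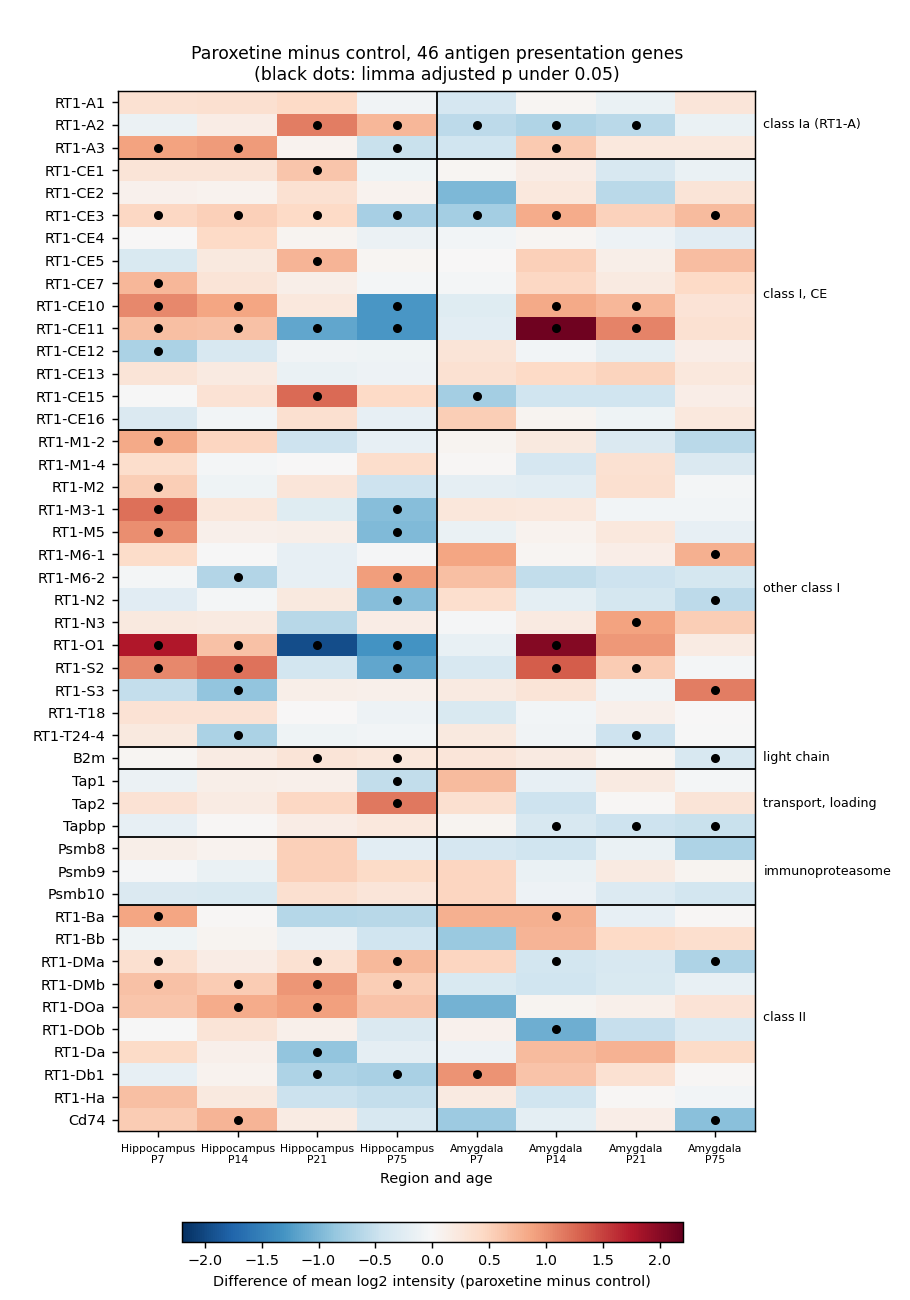
Exposed minus control difference of the mean log2 intensity for the 46 genes (rows, by role) in the 8 comparisons (columns), red where exposed rats were higher and blue where they were lower, with a dot for a limma adjusted p under 0.05. RT1-O1 and RT1-CE11 run red, red, blue, blue in the hippocampus and are darkest in the amygdala at P14.

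RT1-O1, a class I gene of the telomeric part of the complex, had the widest hippocampal range of the 46 genes, with group means between 8.11 and 10.78. At P7 its exposed hippocampal arrays read 10.47, 10.64, 9.27 and 9.09, against 7.98, 8.26, 8.47, 7.65 and 8.19 in controls. The groups did not overlap, and the difference was 1.76 ± 0.25 (limma, adjusted p = 2.05e-07). At P14 exposed arrays read 8.85, 9.12, 8.32, 9.04 and 9.24, against 8.66, 8.54, 8.86, 7.69 and 7.61 in controls. These groups overlapped, and the rise of 0.64 ± 0.23 (limma, adjusted p = 0.0284) was lost in 5 of 10 fits that left out 1 array (adjusted p up to 0.126) and without control arrays 4 and 5 together (0.23, adjusted p = 0.548).

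By P21 the order had turned. Exposed hippocampi read 9.05, 8.74, 8.92, 8.75 and 8.73 for RT1-O1, against 10.97, 10.76, 10.83, 10.71 and 10.65 in controls. Every exposed array was below every control array, and the gene fell by 1.94 ± 0.23 on the log2 scale (limma, adjusted p = 5.33e-07). At P75, off the drug, exposed arrays read 8.95, 9.11, 9.39, 9.46 and 9.34, against 10.64, 10.50, 10.43, 10.68 and 10.58 in controls. The gene fell by 1.32 ± 0.23 (limma, adjusted p = 2.36e-05), again without overlap. Its exposed hippocampal means were 9.87, 8.91, 8.84 and 9.25 over the 4 ages and its control means 8.11, 8.27, 10.78 and 10.57; the control means span more than the exposed means.

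In the amygdala RT1-O1 read 7.17, 6.56, 8.22 and 8.34 in exposed rats at P7, against 7.49, 8.16, 7.96, 8.07 and 7.03 in controls, a difference of -0.17 that was not called, in overlapping groups. Its P14 arrays read 10.04, 9.76, 9.40, 9.11 and 9.38 in exposed rats, against 8.17, 7.05, 8.48, 7.22 and 6.63 in controls. The exposed group lay wholly above the controls, and the rise of 2.03 ± 0.37 (limma, adjusted p = 4.8e-05) was the second largest called difference of the set. Exposed arrays at P21 read 9.13, 9.59, 9.60, 9.54 and 9.79, against 8.96, 8.51, 8.51, 8.65 and 8.28 in controls. They did not overlap, yet the difference of 0.95 missed the threshold in the limma fit of all amygdalar arrays. At P75 exposed arrays read 10.06, 10.31, 8.31, 8.62 and 8.20, against 9.34, 9.05, 9.36, 8.49 and 8.40 in controls, with a difference of 0.17 that was not called. The 5 exposed values fell apart into 2 near 10 and 3 between 8.2 and 8.62.

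RT1-S2, whose gene span overlaps that of RT1-O1, rose at hippocampal P7 and P14 and at amygdalar P14 and fell at hippocampal P75, as RT1-O1 did. At hippocampal P7 it read 9.81, 9.87, 9.79 and 9.95 in exposed rats, against 8.75, 8.81, 9.15, 8.56 and 8.69 in controls (1.07 ± 0.21, limma adjusted p = 5.29e-05). At P14 it read 9.51, 9.60, 9.85, 9.46 and 9.50 in exposed rats, against 8.89, 8.72, 9.11, 7.82 and 7.40 in controls (1.20 ± 0.20, limma adjusted p = 8.92e-06). Neither pair of groups overlapped, and unlike RT1-O1 the exposed P7 arrays lay close together. At P21 the exposed hippocampi read 9.83, 9.90, 9.52, 9.64 and 9.43, against 10.27, 9.75, 10.29, 10.12 and 9.88 in controls, a difference of -0.40 that was not called. At P75 they read 8.55, 8.95, 8.86, 8.74 and 8.69, against 9.79, 10.10, 10.16, 9.76 and 9.72 in controls (-1.15 ± 0.20, limma adjusted p = 1.54e-05). All 5 exposed arrays were lower than all controls at that age.

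Amygdalar RT1-S2 at P14 read 9.56, 9.77, 9.47, 9.87 and 9.62 in exposed rats, against 8.80, 8.47, 8.54, 7.74 and 8.09 in controls (1.33 ± 0.21, limma adjusted p = 4.44e-06). Its P21 arrays read 9.78, 9.91, 9.59, 9.45 and 9.86 in exposed rats, against 9.17, 9.10, 9.12, 9.25 and 9.17 in controls (0.56 ± 0.21, limma adjusted p = 0.0425). Exposed arrays were higher throughout at both ages, although the P21 call was lost in 9 of 10 fits that left out 1 array (adjusted p up to 0.0958). It was called at neither P7 (8.32, 7.88, 8.37 and 8.56 in exposed rats, against 8.74, 8.80, 9.11, 7.997 and 8.51 in controls) nor P75 (9.80, 10.09, 8.87, 9.86 and 8.95 in exposed rats, against 9.91, 9.51, 9.43, 9.53 and 9.42 in controls).

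RT1-CE11, a class I gene of the CE region, had the largest called difference of the 46 genes. In the amygdala at P14 it read 10.38, 10.41, 10.38, 10.39 and 10.55 in exposed rats, against 8.33, 8.51, 8.76, 6.78 and 9.01 in controls. The exposed arrays were almost level while the controls spanned more than 2 log2 units, and the rise was 2.15 ± 0.31 (limma, adjusted p = 1.27e-06). At P21 exposed arrays read 10.07, 10.30, 10.34, 10.33 and 10.50, against 9.32, 9.22, 9.25, 9.04 and 9.20 in controls (1.10 ± 0.31, limma adjusted p = 0.00734), again without overlap. No difference was called at P7 (8.10, 7.10, 8.85 and 9.00 in exposed rats, against 8.34, 8.47, 8.57, 8.71 and 8.38 in controls) or at P75 (10.55, 10.71, 9.54, 10.31 and 9.07 in exposed rats, against 9.71, 9.78, 10.06, 9.39 and 9.51 in controls).

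In the hippocampus RT1-CE11 read 10.67, 10.79, 9.50 and 9.54 in exposed rats at P7, against 9.44, 9.41, 9.66, 9.10 and 9.67 in controls (0.67 ± 0.24, limma adjusted p = 0.0167). The rise rested on exposed arrays 1 and 2: without both it was 0.07 (adjusted p = 0.852), without array 1 0.49 (adjusted p = 0.102), without array 2 0.45 (adjusted p = 0.125), and without control array 4 0.58 (adjusted p = 0.051). Its P14 arrays read 9.70, 9.64, 9.51, 10.06 and 9.78 in exposed rats, against 9.47, 9.64, 9.39, 8.77 and 8.18 in controls (0.65 ± 0.22, limma adjusted p = 0.0198). That rise was 0.24 without control arrays 4 and 5 together (adjusted p = 0.477), 0.42 without control array 5 (adjusted p = 0.125), 0.57 without control array 4 (adjusted p = 0.0619) and 0.57 without exposed array 4 (adjusted p = 0.0584).

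The hippocampal falls of RT1-CE11 held in all fits that left out 1 array. At P21 it read 10.09, 9.61, 9.25, 9.59 and 9.46 in exposed rats, against 10.81, 10.97, 10.52, 10.92 and 10.48 in controls (-1.14 ± 0.22, limma adjusted p = 0.000287). Its P75 arrays read 9.50, 9.52, 9.74, 9.56 and 9.27 in exposed rats, against 10.64, 10.88, 10.69, 10.87 and 10.90 in controls (-1.28 ± 0.22, limma adjusted p = 1.77e-05). In both, exposed and control arrays were fully apart.

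RT1-CE10, whose span overlaps that of RT1-CE11, is one of the brightest RT1 rows. At hippocampal P7 it read 11.75, 12.30, 12.03 and 12.23 in exposed rats, against 11.12, 10.77, 11.27, 10.98 and 10.96 in controls (1.06 ± 0.19, limma adjusted p = 1.16e-05). At P14 it read 11.68, 12.01, 11.78, 12.23 and 12.01 in exposed rats, against 11.42, 11.69, 11.21, 10.75 and 10.28 in controls (0.87 ± 0.18, limma adjusted p = 0.000163). The P7 groups were apart, and the P14 groups overlapped only between exposed array 1 and control array 2. Its P21 arrays read 12.06, 12.11, 12.44, 12.09 and 12.43 in exposed rats, against 11.95, 12.01, 11.86, 12.11 and 12.05 in controls, and no difference was called. At P75 it read 11.19, 11.38, 11.21, 11.24 and 10.85 in exposed rats, against 12.27, 12.18, 12.32, 12.69 and 12.84 in controls (-1.29 ± 0.18, limma adjusted p = 3.95e-07). That is the clearest fall at this age by its p-value among the 46 genes.

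Amygdalar RT1-CE10 read 10.48, 10.65, 10.78, 11.03 and 10.90 in exposed rats at P14, against 10.26, 9.89, 10.18, 9.36 and 9.97 in controls (0.84 ± 0.16, limma adjusted p = 7.2e-05). At P21 it read 11.18, 11.08, 11.15, 11.14 and 11.38 in exposed rats, against 10.48, 10.48, 10.64, 10.54 and 10.13 in controls (0.73 ± 0.16, limma adjusted p = 0.00065). Exposed arrays were higher without overlap at both ages. At P7 it read 10.00, 9.83, 9.83 and 9.76 in exposed rats, against 10.26, 10.25, 10.03, 10.20 and 9.86 in controls, and at P75 11.20, 11.32, 11.11, 11.34 and 10.55 in exposed rats, against 11.25, 10.77, 10.83, 10.74 and 10.42 in controls, with no call at either age.

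RT1-M3-1 belongs to the M region, and its mouse counterpart H2-M3 is known for presenting peptides with a formyl group. Its hippocampal arrays read 9.15, 9.17, 9.08 and 8.90 in exposed rats at P7, against 7.88, 7.92, 7.91, 7.92 and 7.72 in controls. All 4 exposed arrays were more than 1 log2 unit above the mean of the controls, and the rise of 1.21 ± 0.17 had the smallest adjusted p of the set at this age (limma, 1.81e-07). Its P14 arrays read 8.77, 8.81, 8.92, 8.86 and 8.81 in exposed rats, against 8.08, 9.00, 8.65, 8.80 and 8.40 in controls, and at P21 9.25, 9.36, 8.88, 8.86 and 8.79 in exposed rats, against 9.36, 9.46, 9.13, 9.35 and 9.15 in controls, with no call. Its P75 arrays read 8.17, 8.47, 9.13, 8.23 and 8.89 in exposed rats, against 9.68, 9.53, 9.78, 9.11 and 9.49 in controls (-0.94 ± 0.16, limma adjusted p = 1.25e-05). Only exposed array 3 reached the lowest control. In the amygdala its differences lay between -0.06 and 0.24 and none was called.

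RT1-M5, another M region gene of lower signal, read 7.69, 8.27, 8.47 and 8.49 in exposed hippocampus at P7, against 7.78, 7.20, 7.02, 6.81 and 7.25 in controls (1.02 ± 0.26, limma adjusted p = 0.00101). At P75 it read 7.41, 7.81, 7.15, 7.86 and 7.51 in exposed rats, against 9.00, 8.15, 9.13, 7.92 and 8.36 in controls (-0.96 ± 0.24, limma adjusted p = 0.00146). The P7 groups overlapped at 1 exposed array and the P75 groups did not overlap. Its other 6 differences lay between -0.18 and 0.24, and none was called.

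RT1-A3, of the classical class I region, read 11.94, 11.72, 12.26 and 12.09 in exposed hippocampus at P7, against 11.26, 11.04, 10.94, 11.31 and 11.03 in controls (0.89 ± 0.16, limma adjusted p = 1.44e-05). It rose also at P14 (0.93 ± 0.15, limma adjusted p = 7.08e-06), and fell by 0.50 ± 0.15 at P75 (limma, adjusted p = 0.00808). The P7 and P14 groups did not overlap, and the P75 groups did. Its amygdalar rise at P14 was 0.57 ± 0.19 (limma, adjusted p = 0.0165), or 0.42 without control array 5 (adjusted p = 0.0773). RT1-CE3 was called in 7 of the 8 comparisons, the most of any of the genes. It rose by 0.45 to 0.52 in the hippocampus at P7, P14 and P21, and it fell by 0.73 ± 0.15 there at P75 (limma, adjusted p = 0.000227) without overlap. In the amygdala it fell by 0.75 at P7, rose by 0.82 at P14 and rose by 0.70 at P75, and of its 7 calls the hippocampal ones at P14 and P75 and the amygdalar one at P14 held in all fits that left out 1 array. The P14 hippocampal call was lost without control arrays 4 and 5 together (0.29, adjusted p = 0.21). The P7 hippocampal call was lost without exposed array 3 (0.36, adjusted p = 0.0818) or 4 (0.41, adjusted p = 0.0521), that at P21 in 5 of 10 fits (adjusted p up to 0.0798), and that of amygdalar P7 in 8 of 9 (adjusted p up to 0.127). The amygdalar P75 call was lost without control array 3 (0.64, adjusted p = 0.0541), control array 5 (0.55, adjusted p = 0.0922) or exposed array 4 (0.58, adjusted p = 0.0818).

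**Figure D3:**
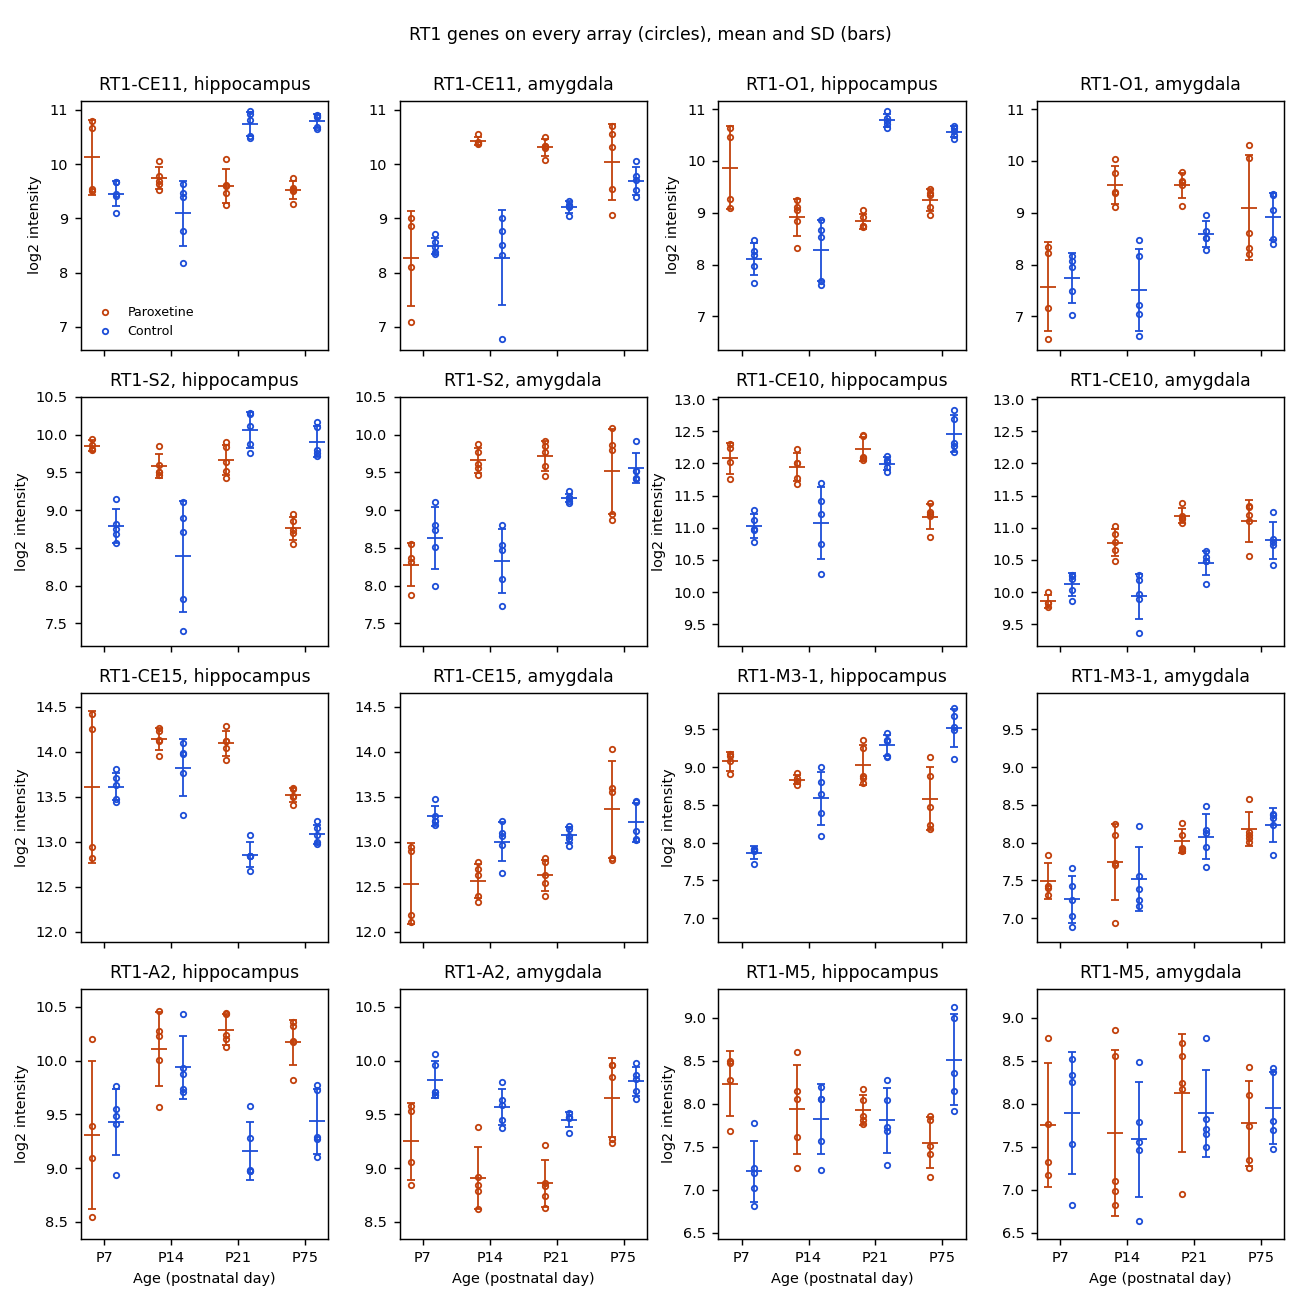
Log2 intensity of 8 RT1 genes on every array (circles) with group mean and SD (bars), exposed rats in red-brown and left of control rats in blue, over P7, P14, P21 and P75 in hippocampus and amygdala. RT1-O1 and RT1-CE11 lie higher in exposed hippocampus at P7 and lower at P21 and P75, while RT1-CE15 and RT1-A2 lie higher there at P21.

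At hippocampal P21, when RT1-O1 and RT1-CE11 fell, RT1-CE15, RT1-A2 and the class II gene RT1-DMb rose, as did B2m, RT1-CE1, RT1-CE3, RT1-CE5, RT1-DMa and RT1-DOa. RT1-CE15, the brightest row of the 46 (98.8th percentile of all features), read 14.12, 14.11, 14.04, 13.90 and 14.28 in exposed hippocampus at P21, against 12.68, 12.84, 12.84, 12.84 and 13.07 in controls. The gap left no overlap, and the rise was 1.24 ± 0.19 (limma, adjusted p = 1.68e-05). RT1-A2, a classical class I gene, read 10.24, 10.20, 10.13, 10.44 and 10.44 in exposed hippocampus at P21, against 8.97, 8.97, 8.99, 9.28 and 9.58 in controls (1.13 ± 0.21, limma adjusted p = 0.000154). RT1-DMb, the beta chain of the class II peptide editor, read 10.11, 10.19, 10.25, 10.31 and 10.15 in exposed rats, against 9.23, 9.70, 9.10, 9.03 and 9.09 in controls (0.97 ± 0.21, limma adjusted p = 0.000864). All 3 genes separated every exposed from every control array at this age. RT1-DMb was chosen after its values were seen, and the share of all features without overlap was not computed. With the random probe as a covariate 0 of the 46 genes were called at hippocampal P21.

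At hippocampal P75 RT1-A2 read 10.17, 10.32, 10.18, 9.82 and 10.36 in exposed rats, against 9.73, 9.11, 9.29, 9.78 and 9.27 in controls (0.74 ± 0.21, limma adjusted p = 0.00451), with no overlap. RT1-CE15 read 13.49, 13.59, 13.60, 13.40 and 13.50 in exposed rats there, against 13.23, 13.15, 12.98, 13.08 and 12.99 in controls. These groups did not overlap either, but the difference of 0.43 was not called. At P14 the hippocampal exposed arrays of RT1-CE15 read 14.23, 13.95, 14.26, 14.13 and 14.12, against 13.99, 14.10, 13.76, 13.30 and 13.97 in controls, and those of RT1-A2 10.46, 10.23, 10.27, 9.56 and 10.01, against 9.88, 10.43, 9.74, 9.71 and 9.93 in controls, with no call.

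The amygdala ran the other way for RT1-A2 and RT1-CE15. RT1-A2 read 9.53, 9.58, 9.05 and 8.84 in exposed rats at P7, against 10.06, 9.96, 9.71, 9.71 and 9.68 in controls (-0.57 ± 0.16, limma adjusted p = 0.028). That call was lost without exposed array 3 (-0.51, adjusted p = 0.0991), exposed array 4 (-0.44, adjusted p = 0.141), control array 1 (-0.51, adjusted p = 0.0604) or control array 2 (-0.54, adjusted p = 0.0542). At P14 it read 8.62, 9.38, 8.78, 8.91 and 8.84 in exposed rats, against 9.80, 9.64, 9.45, 9.59 and 9.37 in controls (-0.66 ± 0.16, limma adjusted p = 0.00109). Its P21 arrays read 8.84, 8.74, 8.87, 8.63 and 9.21 in exposed rats, against 9.48, 9.51, 9.33, 9.47 and 9.47 in controls (-0.59 ± 0.16, limma adjusted p = 0.00449). The P7 and P21 groups did not overlap. At P75 RT1-A2 read 9.23, 9.27, 9.96, 9.96 and 9.84 in exposed rats, against 9.98, 9.86, 9.83, 9.64 and 9.72 in controls, and was not called.

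RT1-CE15 read 12.95, 12.90, 12.18 and 12.11 in exposed amygdala at P7, against 13.47, 13.23, 13.28, 13.23 and 13.19 in controls (-0.75 ± 0.19, limma adjusted p = 0.0141), without overlap. Leaving out exposed array 3 gave -0.63 (adjusted p = 0.0735) and leaving out exposed array 4 gave -0.61 (adjusted p = 0.0794). Its P14 arrays read 12.63, 12.33, 12.39, 12.77 and 12.70 in exposed rats, against 13.10, 12.96, 13.07, 12.66 and 13.23 in controls, and at P21 12.77, 12.40, 12.62, 12.54 and 12.82 in exposed rats, against 13.07, 13.03, 13.18, 13.14 and 12.95 in controls. The P21 groups did not overlap, but the differences of -0.44 and -0.45 were not called. Its P75 arrays read 12.82, 12.80, 13.60, 14.03 and 13.55 in exposed rats, against 13.44, 13.12, 13.46, 13.02 and 13.03 in controls, and no difference was called.

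Within 3 exposed groups these genes split the arrays along the same lines. At hippocampal P7, exposed arrays 1 and 2 read 12.82 and 12.94 for RT1-CE15, whereas arrays 3 and 4 read 14.42 and 14.25. The 5 controls lay between them, at 13.47, 13.63, 13.71, 13.44 and 13.81. RT1-DMb read 9.49 and 8.76 on exposed arrays 1 and 2 and 10.47 and 10.56 on arrays 3 and 4, and RT1-A2 read 8.55, 9.09, 10.20 and 9.39. RT1-O1 and RT1-CE11 were higher on arrays 1 and 2, as their values above show. The group means of RT1-CE15 were therefore equal (13.61 in exposed and 13.61 in control hippocampus), although no exposed array lay within the range of the controls.

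In the amygdala at P7 it was exposed arrays 1 and 2 that were high for RT1-CE15 and low for RT1-O1. At amygdalar P75 exposed arrays 1 and 2 were low for RT1-CE15 and high for RT1-O1, and RT1-DMb read 8.55 and 8.61 on them and 9.56, 9.64 and 9.74 on arrays 3 to 5. The labels give nothing that separates these arrays within a group.

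Of the other class I genes of the CE region, RT1-CE7 rose at hippocampal P7 (0.73 ± 0.19, limma adjusted p = 0.00161) and RT1-CE12 fell there (-0.70 ± 0.17, limma adjusted p = 0.000577), the only fall among the 46 genes in that comparison. Neither pair of groups overlapped, but the RT1-CE7 call was lost without exposed arrays 1 and 2 together (0.52, adjusted p = 0.0698). RT1-CE12 read 7.82, 8.06, 7.90 and 7.81 in exposed rats, against 8.74, 8.72, 8.56, 8.44 and 8.53 in controls. RT1-CE1 and RT1-CE5 rose at hippocampal P21 by 0.60 and 0.75. The RT1-CE1 call was lost without control array 4 (0.55, adjusted p = 0.0538) or exposed array 2 (0.55, adjusted p = 0.0582), and that of RT1-CE5 without control array 1 (0.57, adjusted p = 0.0784). RT1-CE2, RT1-CE4, RT1-CE13 and RT1-CE16 were called in none of the 8 comparisons, nor was RT1-A1 of the classical region.

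Of the M, N, O, S and T loci, RT1-N2 fell in hippocampus at P75, where it read 8.23, 8.01, 8.03, 7.93 and 7.83 in exposed rats, against 8.61, 9.20, 9.09, 8.84 and 8.98 in controls (-0.94 ± 0.20, limma adjusted p = 0.000287). RT1-M6-2 was called lower at hippocampal P14, where its log2 mean was 5.40 in exposed and 6.04 in control rats, and higher at P75, at 6.79 in exposed and 5.86 in control rats. The random control probe was at 5.602 on the exposed P14 arrays and 5.815 on the control P75 arrays, so 1 group of each pair lay below or next to it and no size is given for these 2 calls. Of the 46 genes 7 had at least 1 of their 16 group means at or below the random probe (Psmb9, RT1-Ba, RT1-Bb, RT1-DOb, RT1-M2, RT1-M6-1 and RT1-M6-2), and 19 had at least 1 below or within 1 log2 unit above it. Other calls, given with a size, also rest on a group mean near the probe, among them those of RT1-M2, RT1-M6-1, RT1-Ba and RT1-DOb. RT1-M2 averaged 5.68 in control hippocampus at P7 (probe 5.458), and RT1-M6-1 5.80 in control amygdala at P75 (probe 5.666). RT1-S3 rose in amygdala at P75, where it read 8.43, 7.97, 8.89, 8.33 and 8.57 in exposed rats, against 7.30, 7.16, 7.48, 7.33 and 7.29 in controls (1.12 ± 0.19, limma adjusted p = 3.97e-05). It fell by 0.87 ± 0.26 at hippocampal P14 (limma, adjusted p = 0.00743), a call lost without control arrays 1 to 3 together (-0.73, adjusted p = 0.0954). RT1-T24-4 fell by 0.70 at hippocampal P14 and by 0.46 at amygdalar P21, RT1-N3 rose by 0.89 at amygdalar P21, RT1-M1-2 and RT1-M2 rose by 0.84 and 0.55 at hippocampal P7, and RT1-M6-1 rose by 0.78 and RT1-N2 fell by 0.58 at amygdalar P75. Of these, RT1-M1-2 was not called without exposed array 2 (0.67, adjusted p = 0.0681), and RT1-M6-2 at P14 not without control array 1 (adjusted p = 0.0704) or exposed array 5 (adjusted p = 0.0502). RT1-M2 lost its call in 5 of 9 fits that left out 1 array (adjusted p up to 0.285), and in 10 such fits RT1-T24-4 lost its amygdalar call in 7, RT1-M6-1 in 5 and RT1-N2 its amygdalar call in 6. RT1-M1-4 and RT1-T18 were called nowhere.

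The class I light chain B2m was called in 3 of the 8 comparisons, with differences of -0.35, 0.28 and 0.26. B2m, at the 97.29th percentile of all features, had group means between 11.88 and 12.63. In the amygdala at P75 it read 12.34, 12.19, 11.62, 11.92 and 11.87 in exposed rats, against 12.27, 12.41, 12.18, 12.39 and 12.45 in controls (-0.35 ± 0.10, limma adjusted p = 0.0115). The groups overlapped, and without exposed array 3 the difference was -0.26 (adjusted p = 0.0608). In the hippocampus at P21 it read 12.63, 12.28, 12.59, 12.43 and 12.20 in exposed rats, against 12.19, 12.12, 12.08, 12.17 and 12.16 in controls (0.28 ± 0.11, limma adjusted p = 0.044). At P75 it read 12.48, 12.48, 12.46, 12.48 and 12.59 in exposed rats, against 12.35, 12.28, 12.05, 12.37 and 12.16 in controls (0.26 ± 0.11, limma adjusted p = 0.0457). Both hippocampal pairs of groups were apart, but each call was lost in 8 of 10 fits that left out 1 array (adjusted p up to 0.128 at P21 and 0.132 at P75). After quantile normalization the differences were 0.07 (adjusted p = 0.709) and -0.01 (adjusted p = 0.959), so the B2m direction at P75 depends on the scaling.

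At the other ages B2m was not called. It read 12.32, 12.09, 12.05 and 11.86 in exposed hippocampus at P7, against 11.95, 11.91, 12.13, 12.17 and 12.02 in controls, and 12.35, 12.52, 12.15, 12.54 and 12.27 in exposed hippocampus at P14, against 12.15, 12.32, 12.32, 12.17 and 11.99 in controls. In the amygdala it read 12.09, 12.12, 12.11 and 12.29 in exposed rats at P7, against 11.74, 11.95, 11.80, 11.93 and 11.96 in controls, without overlap and with a difference of 0.27. At P14 it read 12.58, 12.65, 12.70, 12.62 and 12.60 in exposed rats, against 12.55, 12.36, 12.25, 12.47 and 12.53 in controls, and at P21 12.32, 12.37, 12.35, 12.47 and 12.38 in exposed rats, against 12.53, 12.23, 12.36, 12.20 and 12.38 in controls. The P7 and P14 amygdalar groups were apart and the others overlapped. No light-chain difference was larger in size than the one at amygdalar P75.

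Tapasin (Tapbp) fell in the exposed amygdala at 3 ages. Its P14 arrays read 8.97, 8.86, 8.96, 8.93 and 8.68 in exposed rats, against 9.36, 8.80, 9.55, 9.30 and 9.13 in controls (-0.35 ± 0.14, limma adjusted p = 0.0492). At P21 it read 9.12, 8.62, 8.92, 8.73 and 8.73 in exposed rats, against 9.29, 9.02, 9.62, 9.22 and 9.23 in controls (-0.45 ± 0.14, limma adjusted p = 0.0168). Its P75 arrays read 8.79, 8.75, 8.94, 9.26 and 8.97 in exposed rats, against 9.43, 9.35, 9.29, 9.61 and 9.51 in controls (-0.50 ± 0.14, limma adjusted p = 0.00943). The P75 groups alone did not overlap. The P14 call was lost in 8 of 10 fits that left out 1 array (adjusted p up to 0.152), the P21 call without control array 3 (-0.36, adjusted p = 0.0688) or exposed array 2 (-0.40, adjusted p = 0.0529), and the P75 call without exposed arrays 1 and 2 together (-0.38, adjusted p = 0.105). In the hippocampus its differences lay between -0.17 and 0.23 and none was called.

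Tap2, a subunit of the peptide pump, rose in hippocampus at P75. It read 7.89, 8.67, 7.47, 7.93 and 8.03 in exposed rats, against 6.27, 6.39, 5.74, 7.75 and 8.06 in controls (1.16 ± 0.34, limma adjusted p = 0.00573). Of these controls 3 were far below the exposed arrays and the other 2 were among them. Its partner Tap1 read 7.36, 7.33, 5.96, 6.92 and 6.92 in exposed rats there, against 7.59, 7.71, 7.46, 7.47 and 6.98 in controls (-0.54 ± 0.21, limma adjusted p = 0.0365), a call lost in 7 of 10 fits that left out 1 array, with a difference of -0.31 (adjusted p = 0.213) without exposed array 3. Neither was called in any of the other 7 comparisons.

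The immunoproteasome subunits were called in none of the 8 comparisons. Psmb8, Psmb9 and Psmb10 lay at the 21.75th, 17.56th and 49.86th percentile of all features. The largest difference in size among their 24 was that of Psmb8 in the amygdala at P75, where it read 5.90, 6.30, 6.79, 5.69 and 6.25 in exposed rats, against 6.31, 7.08, 6.05, 7.90 and 6.94 in controls. Psmb9 in the hippocampus at P21 read 5.85, 6.20, 5.97, 6.41 and 6.31 in exposed rats, against 5.54, 5.65, 5.59, 5.63 and 5.73 in controls, and these groups did not overlap. The control mean of that pair, 5.63, was below the random probe at 5.786. Psmb8 and Psmb9 were below the probe or within 1 log2 unit above it in 14 and 15 of the 16 groups. Psmb10 read 8.09, 8.06, 8.43 and 8.25 in exposed amygdala at P7, against 8.03, 7.89, 7.998, 7.63 and 7.16 in controls. A p that misses the threshold does not show that these groups were alike. Of 15 genes of the constitutive proteasome and its PA28 activator 12 fell at hippocampal P7, where 28.3% of all features fell, and 10 rose at P75, where 23.7% rose. The difference between these and the 3 immunoproteasome genes was not tested.

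**Figure D4:**
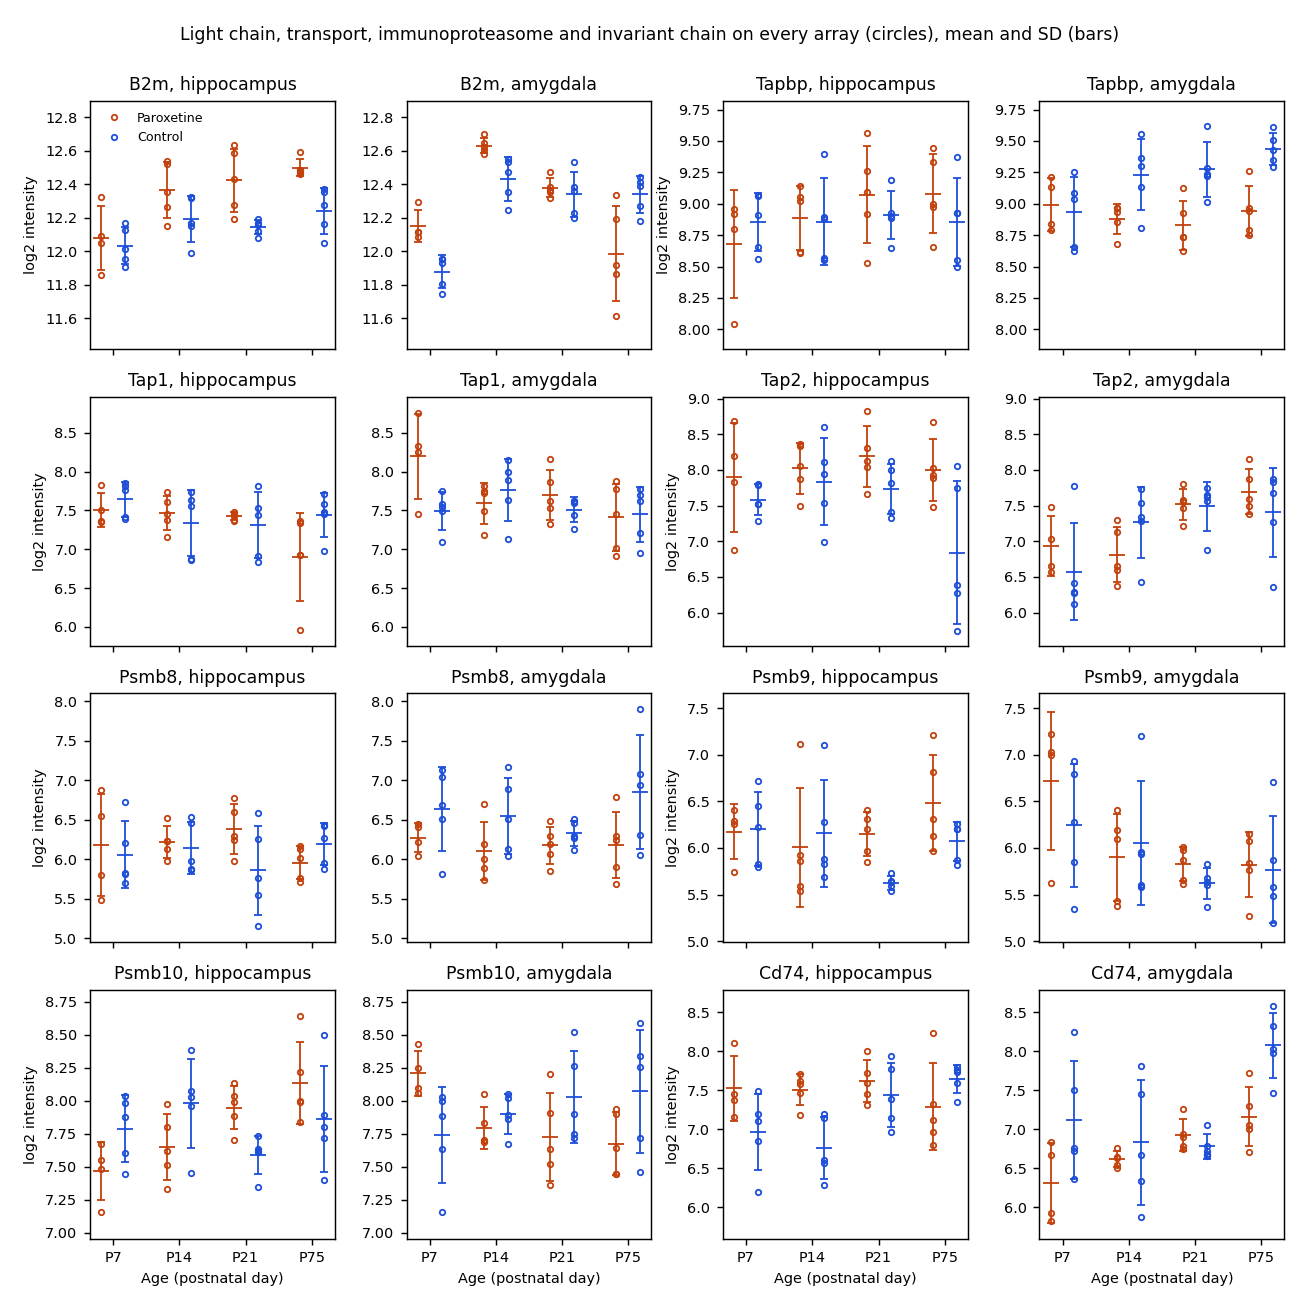
Log2 intensity of B2m, Tapbp, Tap1, Tap2, Psmb8, Psmb9, Psmb10 and Cd74 on every array (circles) with group mean and SD (bars), exposed rats in red-brown and left of control rats in blue. Tapbp lies lower in exposed amygdala at P14, P21 and P75, and 3 of the 5 hippocampal control values of Tap2 at P75 lie below all exposed ones.

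Among the class II genes those of the peptide editor were called most often, RT1-DMa in 5 and RT1-DMb in 4 of the 8 comparisons, against at most 3 for the others. RT1-DMa, the alpha chain of the editor, read 10.26, 10.44, 10.08, 10.36 and 10.35 in exposed hippocampus at P75, against 9.65, 9.65, 9.64, 9.71 and 9.28 in controls (0.71 ± 0.13, limma adjusted p = 2.82e-05). In the amygdala of the same age it read 9.33, 9.44, 9.02, 9.48 and 9.50 in exposed rats, against 10.01, 10.21, 9.94, 10.05 and 9.96 in controls (-0.68 ± 0.15, limma adjusted p = 0.000791). Both pairs of groups were fully apart, in opposite directions. RT1-DMa also rose by 0.36 and 0.34 at hippocampal P7 and P21 and fell by 0.41 at amygdalar P14, calls lost in 4 of 9, 8 of 10 and 5 of 10 fits that left out 1 array. RT1-DMb rose in the hippocampus at all 4 ages, by 0.64, 0.56, 0.97 and 0.54, but only the P21 call held in all fits that left out 1 array, and without exposed arrays 3 and 4 the P7 difference was -0.06 (adjusted p = 0.85). In the amygdala its differences lay between -0.44 and -0.16, and none was called.

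Cd74, the invariant chain, lay at the 38.06th percentile of all features. At hippocampal P14 it read 7.58, 7.46, 7.70, 7.18 and 7.62 in exposed rats, against 7.15, 6.61, 6.28, 6.56 and 7.19 in controls (0.75 ± 0.24, limma adjusted p = 0.0109). At amygdalar P75 it read 6.71, 7.30, 7.06, 7.01 and 7.72 in exposed rats, against 7.97, 8.33, 8.02, 8.59 and 7.46 in controls (-0.92 ± 0.29, limma adjusted p = 0.0224). The groups overlapped narrowly in each case, and the hippocampal call was lost without control arrays 1 to 3 together (0.63, adjusted p = 0.102). The amygdalar call was lost without control array 2 (-0.85, adjusted p = 0.053), control array 4 (-0.79, adjusted p = 0.0723) or exposed array 1 (-0.80, adjusted p = 0.069).

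The other 7 class II genes were dim rows, between the 17.1th and 35.38th percentile of all features. RT1-Da, an alpha chain, fell by 0.87 ± 0.26 at hippocampal P21 (limma, adjusted p = 0.0117), without overlap. RT1-Db1, a beta chain, fell by 0.67 at hippocampal P21 and by 0.71 at P75 and rose by 0.98 at amygdalar P7, and RT1-Ba rose by 0.87 at hippocampal P7 and by 0.79 at amygdalar P14. Each of these 5 calls was lost in 2 to 6 of the fits that left out 1 array. RT1-Ba at P7 fell short without control array 5 (0.67, adjusted p = 0.0575) or exposed array 3 (0.55, adjusted p = 0.122). RT1-DOa rose by 0.82 and 0.90 at hippocampal P14 and P21, and RT1-DOb fell by 1.08 ± 0.31 at amygdalar P14 (limma, adjusted p = 0.00607). The RT1-DOa calls were lost in 7 and 5 of 10 fits that left out 1 array, and those of RT1-Da and RT1-DOb in none. RT1-DOb averaged 5.76 in exposed amygdala at P14, near the random probe at 5.528. RT1-Ba averaged 5.64 in control hippocampus at P7 (probe 5.458) and 5.69 in control amygdala at P14 (probe 5.559). The sizes of these calls are therefore uncertain. RT1-Bb and RT1-Ha were called nowhere.

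Part of the set was higher at the later age in control rats. From P7 to P75, 19 of the 46 genes were higher at P75 and 2 lower in control hippocampus, where 29.4% of all features were higher, 30.4% lower and 59.8% called. In control amygdala 17 were higher and 0 lower, where 13.8% of all features were higher, 11.6% lower and 25.4% called. The random probe averaged 43.97 at P7 and 56.29 at P75 in control hippocampus, and 48.9 and 50.77 in control amygdala. The interquartile range of all log2 values was 3.205 and 2.725 in control hippocampus, and 3.141 and 3.099 in control amygdala. Age differences were not fitted with the random probe as a covariate, so its part in them was not tested. RT1-O1 averaged 10.57 ± 0.10 at P75 and 8.11 ± 0.31 at P7 in control hippocampus (SD, n = 5 each), a difference of 2.46 ± 0.23 (limma, adjusted p = 2.21e-11), and differed by 1.19 ± 0.37 in control amygdala (adjusted p = 0.0149). RT1-M3-1 was higher at P75 by 1.65 ± 0.16 in hippocampus and by 0.98 ± 0.20 in amygdala (limma, adjusted p = 3.26e-11 and 0.000293).

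The 19 hold each of the 8 class I genes that rose at P7 and fell at P75 with exposure, and these comparisons share the control arrays. RT1-CE11 had the largest amygdalar difference (1.20 ± 0.31, limma adjusted p = 0.00312), and RT1-N2 the smallest p there (1.16 ± 0.20, limma adjusted p = 3.95e-05), and RT1-DMa was higher at P75 in both regions, by 0.59 ± 0.13 and 0.79 ± 0.15 (adjusted p = 0.000136 and 8.66e-05). RT1-CE5 and RT1-CE15 were the 2 that were lower at P75 in hippocampus, by -0.71 and -0.53. B2m was higher at P75 in control amygdala by 0.46 ± 0.10 (limma, adjusted p = 0.000792), and its hippocampal difference of 0.21 was not called.

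The exposure difference itself differed between hippocampus and amygdala in a fit of all 78 arrays. The hippocampal difference was above the amygdalar one for 12 of the 46 genes and below it for 5 at P7, where 49.4% of all features were called, 20% above and 29.4% below. It was above for 5 and below for 4 at P14 (28.1% called, 12% above and 16.1% below), above for 8 and below for 6 at P21 (37.6%, 23.2% above and 14.4% below), and above for 6 and below for 8 at P75 (36.9%, 22.3% above and 14.6% below). RT1-O1 was called at all 4 ages, with hippocampal minus amygdalar differences of 1.93 ± 0.47, -1.39 ± 0.44, -2.89 ± 0.44 and -1.49 ± 0.44 (limma, adjusted p = 0.000469, 0.0132, 3.77e-07 and 0.0057). RT1-A2 and RT1-CE15 were on the other side at P21, at 1.72 ± 0.26 and 1.68 ± 0.26 (adjusted p = 2.95e-07 and 5.68e-07). RT1-DMa stood out at P75, at 1.39 ± 0.19 (adjusted p = 2.17e-08), and B2m differed there by 0.61 ± 0.14 (adjusted p = 0.000264). Levels were not compared across regions, because values shared exactly between arrays were more frequent within a region than between regions.

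Of 37 listed MHC regulators and interferon genes 28 had a row, and 5 rose and 9 fell at hippocampal P7 (53.4% of all features called), 1 and 8 at P14 (38.2%), 2 and 3 at P21 (26.4%), and 1 and 4 at P75 (42.4%). In the amygdala 0 rose and 0 fell at P7 (7.83%), 5 and 2 at P14 (35.8%), 3 and 1 at P21 (25.4%), and 2 and 2 at P75 (21.1%). Ciita, the master switch of class II genes, rose by 1.44 ± 0.24 at hippocampal P7, and fell by 1.07 ± 0.23 at P21 and by 1.15 ± 0.23 at P75. It rose by 1.70 ± 0.33 at amygdalar P14 and by 1.08 ± 0.33 at P21. Of the 10 class II genes 3 rose and 0 fell at hippocampal P7, 3 rose (RT1-DMa, RT1-DMb and RT1-DOa) and 2 fell (RT1-Da and RT1-Db1) at P21, and 2 rose (RT1-DMa and RT1-DMb) and 1 fell (RT1-Db1) at P75. At amygdalar P14 RT1-Ba rose and RT1-DMa and RT1-DOb fell, and at P21 0 rose and 0 fell. Nlrc5, the switch of class I genes, had no row. Nfya, a subunit of the factor that binds the CCAAT box, fell by 2.55 ± 0.21 at hippocampal P7 and by 1.68 ± 0.20 at P14, and Irf8 fell by 1.16 ± 0.15 at P21 and by 0.98 ± 0.15 at P75. Of 7 genes of class II processing 6 fell at hippocampal P7 (28.3% of all features) and 6 rose at P75 (23.7%), with cathepsin S (Ctss) at -1.55 ± 0.12 and 1.06 ± 0.11.

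The authors' deposited tables of changes past a fold of 1.5 and a Bonferroni-corrected p of 0.05 list 4 of the 46 genes, among tables of 722, 307, 80 and 360 features in the hippocampus and 3, 150, 187 and 80 in the amygdala at P7, P14, P21 and P75. RT1-M3-1 was up 2.31-fold at hippocampal P7, RT1-CE15 up 2.36-fold and RT1-O1 down 3.85-fold at P21, RT1-CE11 down 2.42-fold and RT1-O1 down 2.49-fold at P75, and RT1-CE11 up 2.14-fold at amygdalar P21, all in the authors' deposited tables. The same tables name 2 further RT1 rows, RT1-CE14 and RT1-EC2, which have a symbol only because they passed those thresholds and are not among the 46. RT1-CE14 read 9.71, 9.79, 9.88, 9.95 and 9.53 in exposed amygdala at P14, against 8.32, 7.53, 8.06, 8.01 and 7.89 in controls. RT1-EC2 read 10.08, 10.19, 10.41, 10.55 and 10.36 in exposed hippocampus at P75, against 11.50, 11.52, 11.35, 11.43 and 11.52 in controls. In hippocampus the means of RT1-CE14 were 9.79, 9.52, 9.37 and 9.20 in exposed and 9.00, 8.95, 10.22 and 10.13 in control rats over the 4 ages, higher in exposed rats at P7 and P14 and lower at P21 and P75.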

How the data were processed

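Total RNA of rat hippocampus and amygdala was linearly amplified, converted to double-stranded cDNA, labelled with Cy3 by random priming and hybridised to NimbleGen arrays, 1 sample per array, per the labels' protocols. The value table holds normalized intensity values that the authors deposited on a linear scale, 1 per feature and array. The method of normalization is not given in the sources used here. Values shared exactly between arrays were more frequent within a region (329) than between regions (85), so levels were not set against each other across regions. The deposited comparison tables, per the file headers, give the authors' absolute fold change and p-value of an unpaired t-test with Bonferroni correction, kept at a fold of at least 1.5 and a corrected p of at most 0.05. Their 312 columns of per-array values were not used.

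Deposited intensity values were turned into log2 values with no pseudocount, and a random-sequence control probe was kept apart. Rows were named by RefSeq accession through the GRCr8 gene table (9747 of 26419 features matched). limma (version 3.58.1 in R 4.3.3) was fitted to all features of a region with 1 mean per group over 39 arrays, with empirical Bayes moderation, and p-values were adjusted by Benjamini-Hochberg over all 26419 features at 0.05. A fit of 78 arrays gave the difference between regions, and F tests gave that between ages. Array measures used exact two-sided permutation tests, adjusted over 8 comparisons, whose smallest possible p was 0.00794 with 5 against 5 arrays and 0.0159 with 4 against 5. The fit was tested on simulated data.

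The genes, lists and tests were chosen with earlier results of these data known. Array values are given by rule for the 8 genes without an RT1 symbol and for the 8 RT1 genes above the median level with the largest called differences; those of RT1-A3, RT1-CE12, RT1-DMa, RT1-DMb, RT1-N2, RT1-S3, RT1-CE14 and RT1-EC2 were chosen after their values were seen. Alternatives were quantile normalization, leaving out the dimmer 50% of features, trended and robust moderation, the replicate number as a block, only the groups compared, the random probe as a covariate, the t-test that the file headers name, and leaving out arrays. Arrays left out together were chosen after seeing the data. Same-numbered arrays of exposed and control groups did not deviate together (correlations of their deviations between -0.157 and 0.0768), so the numbers were not taken as pairs. Analyses and figures used Python 3.11.15, pandas 2.3.3, numpy 2.4.6, scipy 1.17.1 and matplotlib 3.10.9.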

Additional observations from a re-analysis of the deposited data

Results flagged for a closer look

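In 14 of 256 groups (16 genes in 16 groups) 1 array lay far from the others of its group by Dixon's test, and chance flags about 1 group in 20. For B2m, array 5 of exposed hippocampus at P75 read 12.59 against 12.48 for the nearest other array, and array 4 of exposed amygdala at P7 read 12.29 against 12.12 for the nearest other array. For Psmb9, array 5 of exposed hippocampus at P14 read 7.12 against 5.92 for the nearest other array, array 3 of exposed amygdala at P7 read 5.63 against 7.00 for the nearest other array, and array 5 of control amygdala at P14 read 7.20 against 5.95 for the nearest other array. For RT1-A2, array 3 of control amygdala at P21 read 9.33 against 9.47 for the nearest other array. For RT1-CE11, array 5 of exposed amygdala at P14 read 10.55 against 10.41 for the nearest other array. For RT1-M3-1, array 5 of control hippocampus at P7 read 7.72 against 7.88 for the nearest other array, array 1 of exposed amygdala at P75 read 8.58 against 8.14 for the nearest other array, and array 2 of control amygdala at P75 read 7.84 against 8.24 for the nearest other array. For RT1-M5, array 4 of control amygdala at P21 read 8.77 against 7.83 for the nearest other array. For RT1-S2, array 1 of control amygdala at P75 read 9.91 against 9.53 for the nearest other array. For Tap2, array 3 of control amygdala at P7 read 7.78 against 6.42 for the nearest other array, and array 5 of control amygdala at P21 read 6.88 against 7.56 for the nearest other array.

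The exposure difference of the hippocampus minus that of the amygdala passed the limma test (adjusted p under 0.05) in 28 of 64 tests of these 16 genes, 8 of which were chosen for their large called exposure differences, so the count is a description; 49.4%, 28.1%, 37.6% and 36.9% of all features were called at P7, P14, P21 and P75. At P7 the hippocampal difference was above the amygdalar one by 1.36 for Cd74, 1.32 for RT1-CE10, 0.74 for RT1-CE15, 0.97 for RT1-M3-1, 1.93 for RT1-O1 and 1.42 for RT1-S2. At P7 it was below the amygdalar one, with values of -0.79 for Psmb10 and -0.84 for Tap1. At P14 the hippocampal difference was above the amygdalar one by 0.83 for RT1-A2 and 0.75 for RT1-CE15. At P14 it was below the amygdalar one, with values of -1.50 for RT1-CE11 and -1.39 for RT1-O1. At P21 the hippocampal difference was above the amygdalar one by 0.66 for Psmb10, 1.72 for RT1-A2, 1.68 for RT1-CE15 and 0.61 for Tapbp. At P21 it was below the amygdalar one, with values of -2.24 for RT1-CE11, -2.89 for RT1-O1 and -0.95 for RT1-S2. At P75 the hippocampal difference was above the amygdalar one by 0.61 for B2m, 0.67 for Psmb10, 0.89 for RT1-A2 and 0.72 for Tapbp. At P75 it was below the amygdalar one, with values of -1.59 for RT1-CE10, -1.62 for RT1-CE11, -0.89 for RT1-M3-1, -1.49 for RT1-O1 and -1.10 for RT1-S2.

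The exposure difference differed between ages by limma's F test in 16 of 32 tests of these genes, which is again a description; 63.5% of all features were called in the hippocampus and 32.7% in the amygdala. In the hippocampus the adjusted p was 0.0202 for Cd74, 0.0165 for Psmb10, 0.00195 for RT1-A2, 8.18e-10 for RT1-CE10, 1.08e-07 for RT1-CE11, 0.00136 for RT1-CE15, 5.15e-09 for RT1-M3-1, 0.000108 for RT1-M5, 7.99e-12 for RT1-O1 and 2.12e-09 for RT1-S2. In the amygdala the adjusted p was 0.00517 for B2m, 0.00118 for RT1-CE10, 0.000612 for RT1-CE11, 0.0422 for RT1-CE15, 0.00665 for RT1-O1 and 0.00025 for RT1-S2.

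The random control probe, which belongs to no gene, was brighter on exposed than on control arrays in 3 comparisons. It averaged 52.97 in exposed and 43.97 in control hippocampus at P7, 48.57 in exposed and 45.2 in control hippocampus at P14, and 46.71 in exposed and 45.31 in control amygdala at P21.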

How the results depend on the processing

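Of the 87 called exposure differences of single genes, 69 were called in the same direction after quantile normalization, 17 were not called, and that of B2m at hippocampal P75 turned to -0.00928 (adjusted p = 0.959). Trended and robust moderation lost 2 calls. Leaving out 1 array at a time, 48 kept their call in every fit and 39 lost it in at least 1.

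The number of the 46 genes called moved with the random probe as a covariate, to 1, 6, 0 and 1 in the hippocampus at P7, P14, P21 and P75 and to 2 in the amygdala at P7. Fitted with only the groups compared, the amygdala had 0 calls at P7 and 14 at P21. The t-test that the file headers name gave 0 at amygdalar P7, 13 at P21 and 4 at P75 after Benjamini-Hochberg adjustment. After Bonferroni adjustment it gave 1, 0, 2 and 2 in the hippocampus and 0, 0, 1 and 0 in the amygdala. Without the dimmer 50% of features, which leaves fewer genes tested, 13 were called for age in control hippocampus and 5 for exposure at amygdalar P75, and without amygdalar exposed arrays 1 and 2 together 4 were. Apart from these settings, the cause of each move was not tested. At hippocampal P7 the difference of RT1-CE15 was 0.72 without exposed arrays 1 and 2, on which it read low, and that of RT1-DMb -0.0551 without exposed arrays 3 and 4, on which it read high, so neither value is a test.

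Leaving out 1 array gave 12 to 16 calls at hippocampal P7, 8 to 14 at P14, 8 to 12 at P21 (8 without control array 1) and 14 to 16 at P75. It gave 0 to 5 at amygdalar P7 (0 without exposed array 3), 8 to 11 at P14, 5 to 6 at P21 and 5 to 9 at P75 (5 without exposed array 1). The exposure by age test gave 20 to 25 and 8 to 11 calls in hippocampus and amygdala, the age difference 20 to 23 and 14 to 18, and the region by exposure test 16 to 19, 7 to 10, 11 to 14 and 13 to 15 at P7, P14, P21 and P75.

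With the replicate number as a block, 15, 12, 13 and 15 genes were called in the hippocampus and 5, 12, 8 and 8 in the amygdala at the 4 ages. The block ended the calls of B2m and RT1-DMb at hippocampal P75 (adjusted p = 0.0508 and 0.0507) and changed no other call of a gene called above, but it added RT1-M6-1 at amygdalar P7, RT1-Db1 at P14 and RT1-O1 at P21. These numbers only name arrays, and no pairing was found. The mean of all rows of a symbol was not run, because no gene of the set had more than 1 row. Probes near background set the limit for the dim class II, immunoproteasome and M region rows.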
